A study of Mus musculus with 22 samples.

Results

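Chromatin accessibility at the promoters of cytosolic ribosomal protein genes was described in 22 ATAC-seq libraries of mouse adipocytes. The genes were chosen by symbol from the GENCODE vM21 annotation of GRCm38, as every autosomal protein-coding gene named Rpl or Rps followed by a digit, or Rplp0, Rplp1 or Rplp2, with the Rps6 kinases left out. The rule gave 87 of 20807 autosomal protein-coding genes. It gave 40 genes of the large subunit, 29 of the small subunit, 3 of the stalk and 15 paralogues, retrocopies and genes that only share the name. The rule used no measured value.

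ATAC-seq reads out where a transposase can insert into chromatin, and each library came from the adipocyte nuclei of 1 mouse. All mice carried AdipoERCre x NuTRAP on the background that the labels write as C576BL6. Here a tamoxifen-inducible Cre that is driven in adipocytes switches on a tag for their nuclei, so the nuclei sought were those of cells in which Cre had acted. The purity of the recovered nuclei was not tested here. The tissue was frozen epididymal fat of male mice. The mice of the short-term arm were 18 weeks old as lean controls (C, 3 mice) or after 12 weeks on high-fat diet (H, 3 mice). At 26 weeks the arm held mice that had lost weight on chow for 8 weeks after the same 12 weeks of high-fat diet (HC, 3 mice) and their controls (CC_s, 3 mice). The mice of the long-term arm were 31 weeks old as controls (CC_l, 2 mice) or with 25 weeks of high-fat diet behind them (HH, 3 mice). At 39 weeks they were controls (CCC, 2 mice) or had returned to chow for 8 weeks (HHC, 3 mice). By the methods, controls ate a low-fat chow and then, where a diet group went back to chow, the same standard chow, so control groups differ from each other in age and feed.

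Ribosomal proteins coat the ribosomal RNA of the large and the small subunit, and the stalk of the large subunit recruits the translation factors. Their genes are transcribed in nearly every cell type at high and balanced rates, which is why they serve as housekeeping references. Their mRNAs typically begin with a C followed by a run of pyrimidines, the terminal oligopyrimidine tract, through which growth signals control their translation. Many of them carry small nucleolar RNAs in their introns, and many have left retrocopies without introns elsewhere in the genome. In this annotation 27 of the 87 genes held a small nucleolar RNA inside them.

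The files list peaks, each with its total signal, the read coverage summed over the peak, and its maximum signal, the coverage at its highest base. The authors called them on each library alone with SEACR, which joins neighbouring covered bases into a block and keeps the blocks of highest total, so a peak can run over several genes. A library held 40528 to 60523 peaks. The depth in reads is not known from the files, and HC 3 and HHC 3 stood apart with a median maximum signal of 2.43 and 2.25 times the lowest of their list, against 3.67 to 8.92 in the other 20. All 12 adipocyte marker promoters had a peak in every library, 3 to 9 of 12 macrophage, 2 to 8 of 12 endothelial and stromal, and 0 to 3 of 10 lymphocyte markers did. In bulk nuclei a promoter open in fewer nuclei and one that is less open in each cannot be told apart.

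A promoter was the stretch of 2 kb on each side of the annotated gene start, and a peak that overlapped it by 1 bp was a promoter peak. Where several did so, in 71 of the 1703 cases of a member promoter with a peak in a library, their total signals and widths were summed. Most ribosomal protein promoters carried one everywhere. Of the 87 genes, 74 (85.1%) had a promoter peak in all 22 libraries, against 8939 of all 20807 genes (43.0%) and 66 of 78 mitochondrial ribosomal protein genes (84.6%), whose products build the separate ribosome of mitochondria. Every library held a peak at 75 to 78 of the 87 promoters. By role, a peak in all 22 was found at 39 of 40 genes of the large subunit, 27 of 29 of the small subunit and 3 of 3 of the stalk, but only 5 of 15 paralogues and like-named genes.

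The 13 exceptions fell into 3 kinds. The first were copies without a promoter peak. Rps27rt, Rpl9-ps1, Rpl9-ps6, Rpl10-ps3, Rpl36a-ps1, Rpl36-ps4 and Rps12-ps3 had none in any library. Rpl10l, a retrogene of Rpl10 known from the testis, had one only in HC 3, and Rpl39l, a paralogue of Rpl39, only in H 2. Of the 7 members annotated without an intron 6 had a peak in 0 libraries and 1 in a single library, while 74 of the 80 members with introns had one in all 22. Intronless genes at large were covered more often than that, 239 of 1209 (19.8%) in all 22 libraries.

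The second kind were annotation and neighbours. Rpl3, which helps to form the peptidyl transferase centre, had a promoter peak in 12 libraries, but its gene record begins 8462 bp upstream of the nearest transcript start used here, and with transcript starts counted all 22 libraries had a peak. In that count 75 of 87 genes had a peak everywhere. Rpl3l, the muscle paralogue of Rpl3, had a peak in 19 libraries, but the highest point of that peak lay a median of 7871 bp upstream of its start, and in 16 libraries the peak was the same one as that of its neighbour Rps2, whose start lies 9704 bp away. The third kind were near misses such as Rps10, which lacked a peak only in HHC 3, the library of lowest contrast. With HC 3 and HHC 3 left out, 76 members had a peak in all 20 that remained.

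**Figure D1:**
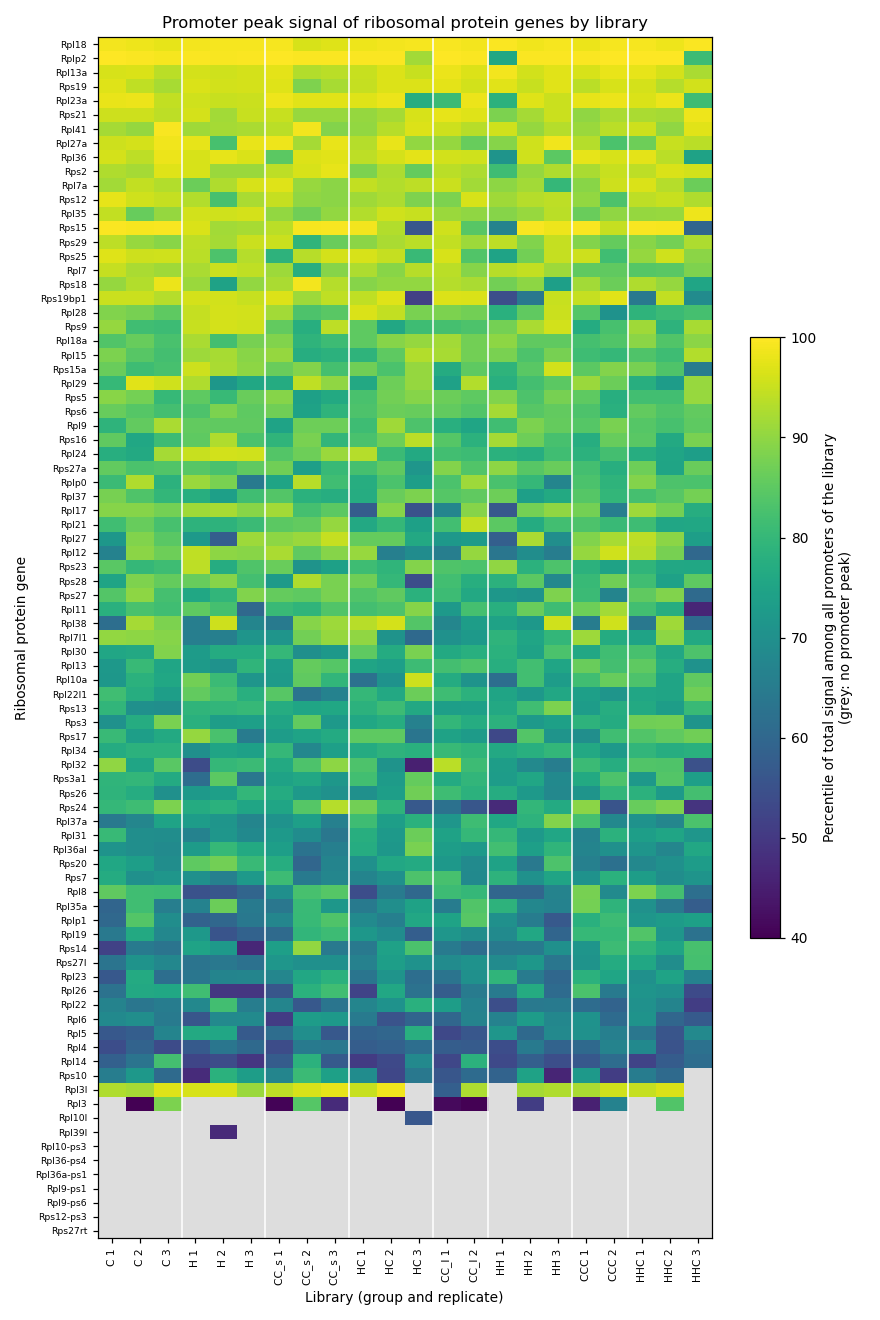
Each row is 1 of 85 ribosomal protein genes, each column 1 of the 22 libraries in their 8 groups (white lines), and the colour is the percentile of total promoter signal among all 20807 promoters of the library, with grey for no promoter peak. Rpl18 sits near the top in every column, the 7 bottom rows are grey throughout, and the scattered dark cells of HC 3, HH 1 and HHC 3 stand out from those of the other libraries.

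Promoter sequences from RefSeq on GRCm38.p6, from 250 bases before the start to 50 after it, were found for 61 of the 87 members, and 100 bases before and 50 after the start are printed here. The first set contrasts a gene with a peak in every library with its relatives and with a retrogene of Rpl10. Rps27, on chromosome 3, and its paralogue Rps27l both had a peak in 22 libraries, the retrocopy Rps27rt in 0 and Rpl10l in 1. Capitals mark a start hexamer, which is TCTTTC or CCTTTC, or the same with T as its last base, on the gene's strand, and which begins within 10 bases of the start.
Rps27 (chr3:90213599-90213748, minus strand): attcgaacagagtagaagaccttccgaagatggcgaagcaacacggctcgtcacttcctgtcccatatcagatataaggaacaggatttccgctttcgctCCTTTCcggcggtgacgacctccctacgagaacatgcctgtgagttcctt
Rps27rt (chr9:114982690-114982839, minus strand): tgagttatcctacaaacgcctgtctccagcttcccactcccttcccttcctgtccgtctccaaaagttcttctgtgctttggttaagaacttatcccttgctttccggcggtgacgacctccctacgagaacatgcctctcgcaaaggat
Rps27l (chr9:66945986-66946135, plus strand): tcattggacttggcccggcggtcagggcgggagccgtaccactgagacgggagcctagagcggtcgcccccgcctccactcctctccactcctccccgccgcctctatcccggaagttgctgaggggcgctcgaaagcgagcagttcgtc
Rpl10l (chr12:66284352-66284501, minus strand): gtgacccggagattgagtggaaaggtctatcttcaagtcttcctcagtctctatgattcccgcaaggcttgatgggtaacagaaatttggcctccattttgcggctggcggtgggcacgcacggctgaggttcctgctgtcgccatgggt

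Rps27 and Rps27rt shared a run of 38 identical bases that begins 1 base after the start of Rps27. At the offset of that run, 39 of the 50 bases from the start on were identical, but only 21 of the 100 bases before it. The likeness of the copy to Rps27 in this window thus begins at the annotated start. Against Rps27l the longest shared run was 8 bases.

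The second set shows RefSeq starts with and without a start hexamer among genes that had a peak in every library. Rps6, the target of the S6 kinases, Rpl28, Rpl38 and Rpl35 hold a start hexamer. Rpl5, which binds 5S ribosomal RNA and can inhibit Mdm2 together with Rpl11, Rpl7l1, a relative of Rpl7, and Rps15, a protein of the head of the small subunit, hold none near the RefSeq start. That start lies at 26 bp from the gene start for Rpl5 and at -22 bp for Rps15 (negative upstream). Further from it the Rpl5 entry holds TCTTTC and the Rps15 entry CCTTTT. Both begin within 10 bases of the gene start used for the peaks. Rpl28, Rpl7l1 and Rps15 are shown also because their peaks differed between H and C.
Rps6 (chr4:86857318-86857467, minus strand): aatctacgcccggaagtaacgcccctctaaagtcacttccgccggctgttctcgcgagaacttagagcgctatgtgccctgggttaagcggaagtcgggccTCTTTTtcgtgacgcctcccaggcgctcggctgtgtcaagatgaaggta
Rpl28 (chr7:4792865-4793014, plus strand): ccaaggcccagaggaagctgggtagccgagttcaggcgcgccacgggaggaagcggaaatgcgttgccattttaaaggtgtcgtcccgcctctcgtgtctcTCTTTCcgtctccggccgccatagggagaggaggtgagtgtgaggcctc
Rpl38 (chr11:114668480-114668629, plus strand): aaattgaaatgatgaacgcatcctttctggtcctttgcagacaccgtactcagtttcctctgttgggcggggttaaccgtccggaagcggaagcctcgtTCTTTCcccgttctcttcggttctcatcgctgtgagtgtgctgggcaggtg
Rpl35 (chr2:39005082-39005231, minus strand): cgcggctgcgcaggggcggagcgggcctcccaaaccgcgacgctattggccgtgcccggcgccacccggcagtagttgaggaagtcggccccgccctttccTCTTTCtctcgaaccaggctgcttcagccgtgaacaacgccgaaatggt
Rpl5 (chr5:107900428-107900577, plus strand): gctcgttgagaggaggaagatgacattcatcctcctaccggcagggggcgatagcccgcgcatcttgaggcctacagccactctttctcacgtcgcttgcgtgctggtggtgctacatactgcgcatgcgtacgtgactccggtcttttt
Rpl7l1 (chr17:46782607-46782756, minus strand): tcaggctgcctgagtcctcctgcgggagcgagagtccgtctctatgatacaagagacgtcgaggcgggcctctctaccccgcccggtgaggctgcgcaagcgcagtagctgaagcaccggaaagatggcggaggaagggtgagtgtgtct
Rps15 (chr10:80292331-80292480, plus strand): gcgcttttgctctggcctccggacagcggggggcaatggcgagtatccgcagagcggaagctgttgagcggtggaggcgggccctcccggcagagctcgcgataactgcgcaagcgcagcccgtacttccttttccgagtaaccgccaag

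Counted from the RefSeq start, a start hexamer was found in 17 of the 61 members with an entry (27.9%). That compares with 531 of 15687 genes (3.38%), 239 of 7018 genes with a peak in all libraries (3.41%) and 0 of 69 mitochondrial ribosomal protein genes. TCTTTC was found in 7 members, CCTTTC in 6, TCTTTT in 2 and CCTTTT in 2, counted once per entry by the hexamer nearest the start. A C or T stood at the annotated start in 31 members (50.8%, against 26.8% of all), and 5 or more pyrimidines in a row, counted from a base within 2 of it on, stood in 25 (41.0%, against 14.9%). Of the 5 members with an entry and a peak in fewer than 22 libraries 2 held the hexamer, Rps10 with a peak in 21 and Rpl39l with a peak in 1. Motifs were searched over all 300 bases on both strands. CCGGAAG, the ETS type, was in 24 members (39.3%, against 13.6% of all and 37.7% of mitochondrial ribosomal protein genes) and AAGATGG, the YY1 type, whose first 3 bases can overlap the end of the former, in 10 (16.4%, against 7.27% and 18.8%). GCGCATG, the NRF1 type, was in 7 (11.5%, against 5.61%), GGGCGG, the GC box, in 37 (60.7%, against 51.7%), and TATAAA in 5 (8.20%, against 14.4%). The same was counted among genes with a peak in all 22 libraries. CCGGAAG was in 39.3% of the 56 such members with an entry and in 22.9% of all such genes, AAGATGG in 17.9% and 8.49%, and GCGCATG in 12.5% and 8.96%. There the direction turned for the other two, with GGGCGG in 62.5% and 70.4% and TATAAA in 8.93% and 7.81%. No entry was found for 26 members, among them Rpl8, Rpl3, Rps14, Rps27a and Rplp1.

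Ribosomal protein promoters ranked above the middle of promoters with a peak everywhere, by a wider margin in height than in total signal. Levels are given as percentiles by rank among the 20807 promoters of a library, with tied promoters at their mean rank, averaged over the 22 libraries. For total signal the median member stood at the 79.5th percentile, and the 74 members with a peak everywhere at 81.5, against 76.1 for all promoters with a peak everywhere and 72.7 for the 66 mitochondrial ribosomal protein promoters of that kind. For maximum signal the 3 medians were 85.7, 76.8 and 75.9. The 4 cytosolic ribosome genes that the symbol rule misses, such as Rpsa and Rack1, had a median total of 87.2, and 14 other mRNAs with a terminal oligopyrimidine tract, such as those of elongation factors, 82.8, and 18 ribosome biogenesis genes 74.8. Adipocyte marker promoters stood at 99.2, macrophage markers at 24.3, endothelial and stromal markers at 25.6 and lymphocyte markers at 21.4, where a promoter without a peak sits near 20.1.

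The members spanned a wide range. Among those with a peak everywhere high values were those of Rpl18 at 98.8 ± 0.796 (SD over 22 libraries), Rplp2 at 97.4 ± 6.41 and Rpl13a at 96.1 ± 1.68. The lowest were Rpl14 at 59.6 ± 9.33, Rpl4 at 59.8 ± 4.33, Rpl5 at 64.0 ± 7.45 and Rpl6 at 64.8 ± 6.42. The order by maximum signal was another one. Rpl5 stood at 75.8 for maximum signal, and Rpl22l1 at 77.3 for total and 98.5 for maximum signal. The total tracked the width of the peak (Spearman's rho 0.76 over the 74 members, which share libraries) more than its height (0.64), and width and height were nearly unrelated (0.15).

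The stalk genes show how far members of 1 complex can lie apart. Rplp0, the scaffold of the stalk, stood at 81.9 ± 7.53 and ranged from 64.7 to 93.6, and Rplp1 stood at 71.3 ± 8.48. Rplp2, at 97.4, had the widest promoter peaks of all members. Their summed width averaged 50.4 ± 25.4 kb, from 1.76 kb in HH 1 to 121 kb in CC_s 2, and the highest point of the strongest one lay a median of 4829 bp downstream. A median of 8 other gene starts lay inside that peak, among them that of Pnpla2, the adipose triglyceride lipase, 7828 bp downstream. Rpl18 was similar. Its peak averaged 26.0 ± 6.58 kb, and its highest point lay a median of 10514 bp upstream, next to the start of Dbp, a clock transcription factor, at 10369 bp. For both genes the total signal takes in that of several neighbouring genes.

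Other examples stood between those ends. Rps6 was at 84.2 ± 3.57, Rps27a, which encodes ubiquitin fused to a small subunit protein, at 83.0 ± 4.73, Rpl11 at 79.7 ± 9.71 and Rps3 at 77.1 ± 5.70. Rps14 was at 69.9 ± 10.3 for total signal but at 48.5 for maximum signal, and its highest point lay a median of 1192.5 bp downstream. That point moved from -36252 bp in CC_s 2 (negative upstream) to 3729 bp in HC 1, so these values do not describe 1 fixed site. Neighbours in this order, Rps6 and Rps27a or Rpl11 and Rps3, differed by less than their spread over libraries. The spread of a member's percentile was 6.42 at the median, against 5.78 for all promoters with a peak everywhere and 5.22 for mitochondrial ribosomal protein promoters.

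Most member peaks were highest at the start itself. In 49 of 74 members (66.2%) the median position of the highest point was within 150 bp of the gene start, against 58.3% of all promoters with a peak everywhere and 74.2% of mitochondrial ribosomal protein promoters. In 5 members it lay over 2 kb upstream and in 5 over 2 kb downstream. Among these were Rpl18, Rps25, Rps15 and Rpl36 on the upstream side and Rps19bp1, Rpl17, Rpl23a, Rplp2 and Rps24 on the downstream side. For Rps24, at 3512 bp, the nearest transcript start used here lies 3556 bp downstream of the gene record. In 28 members (37.8%, against 32.6% of all) the peak held at least 1 other coding gene's start in the median library.

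**Figure D2:**
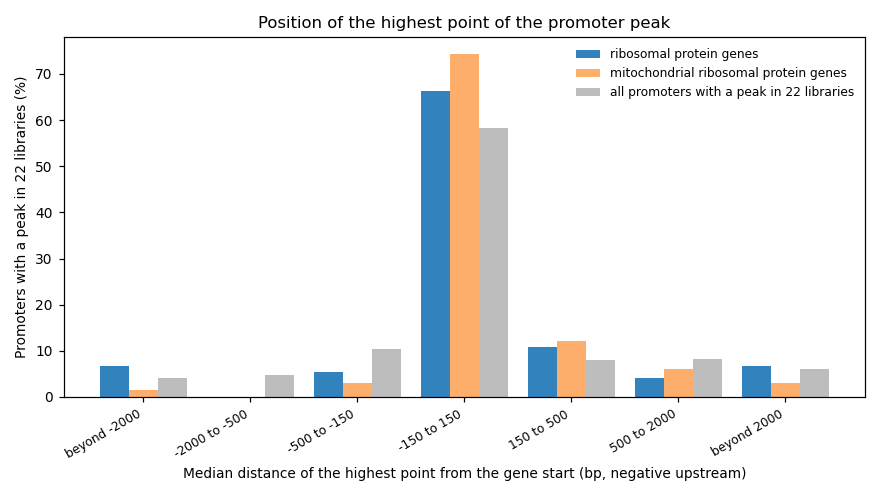
The bars give the share (y axis, %) of promoters with a peak in all 22 libraries whose highest point lies at each median distance from the gene start (x axis, bp, negative upstream). The middle bin holds 66.2% of the 74 ribosomal protein promoters, 74.2% of the 66 mitochondrial ones and 58.3% of all 8939.

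Peaks at ribosomal protein genes were broad. The summed width of a promoter's peaks, averaged over libraries, had a median of 8.10 kb over the 74 members, against 5.17 kb for all promoters with a peak everywhere and 3.67 kb for mitochondrial ribosomal protein promoters. Rplp2, Rps15 at 37.7 ± 31.2 kb and Rpl18 were the widest. The narrowest were Rps27l at 2.89 ± 0.914 kb and Rpl22l1 at 3.17 ± 1.60 kb, both paralogues, beside the single Rpl10l peak of 2.10 kb. In 21 of 22 libraries the median member peak was wider than the median of all promoters, by up to 1.81 times in CC_s 3, and only in HH 1 was it narrower (0.920 times). The width also followed the library. The median member width ran from 2.45 kb in HC 3 to 14.4 kb in CC_s 2, and that of all promoters from 2.32 kb to 8.52 kb in the same libraries.

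**Figure D3:**
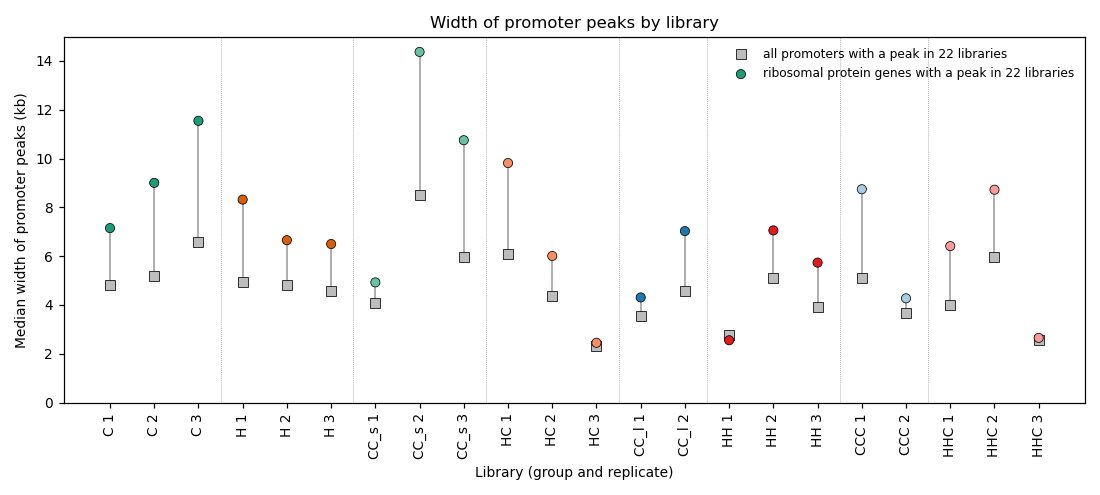
Circles give the median width of the promoter peaks (y axis, kb) of the 74 ribosomal protein genes with a peak everywhere in each library (x axis), coloured by group, and squares that of all 8939 such promoters. Both move together from 2.45 and 2.32 kb in HC 3 to 14.4 and 8.52 kb in CC_s 2.

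Across the 8 groups the level of the set as a whole, read by rank within each library, had group means from 80.7 to 83.2. The library median of total signal over the 74 members had a group mean of 82.6 ± 1.06 (SD over 3 libraries) for C and 83.2 ± 1.78 for H. It was 82.7 ± 1.56 for the CC_s group, with HC at 82.9 ± 0.201. For the older mice CC_l came to 82.2 ± 1.15 (2 libraries) while HH came to 80.7 ± 2.15, and CCC to 82.3 ± 1.25 (2 libraries) beside 82.3 ± 1.33 for HHC. The groups overlapped within each diet pair, and the lowest library was HH 1 at 78.2. On another scale, log2 signal centred on each library's median, the median member differed by -0.26 in H against C and -0.37 in HC against CC_s. It differed by -0.17 in HH against CC_l and -0.10 in HHC against CCC. The median of all promoters tested differed by -0.06, 0.00, -0.06 and 0.01 in that order.

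To compare groups promoter by promoter, each library's promoters were ranked by total signal and given the mean log2 signal of their rank over all libraries, and those without a rank among the first 11697 sat at the floor of 14.32. Differences are on this log2 scale and were tested with limma over all promoters above the floor. A promoter was called at an adjusted p under 0.05. A second count follows the promoter rule of the study, an unadjusted p under 0.01 with an absolute log2 difference above 1.

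The first comparison asked what 12 weeks of high-fat diet changed. In H against C, 4 of the 77 members that could be tested were called, read against 2.10% of all 11949 promoters. These 251 promoters were 140 higher and 111 lower, and 61 higher and 93 lower with libraries centred on their median in place of ranks, where 3 members, all lower, were called. Rpl8, a core protein of the large subunit, Rpl7l1 and Rps15 were lower in H, and Rpl28, also of the large subunit, was higher. The rule of the study took 5 members, Rpl8, Rpl7l1, Rps15, Rps9 and Rpl24, beside 3.72% of all promoters, and at an unadjusted p under 0.05 there were 13, beside 20.5%. The median difference of the members was -0.04 by rank and -0.26 with libraries centred on their median, and that of all promoters 0.03 and -0.06.

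Rpl8 had a rank-mapped log2 signal of 16.99, 16.76 and 16.74 in C and of 15.33, 15.39 and 15.60 in H. The difference was -1.39 (SE 0.15, adjusted p = 0.0202), and the groups did not overlap. Rpl7l1 read 17.41, 17.36 and 17.30 in C against 15.93, 15.95 and 16.21 in H. It differed by -1.33 (SE 0.16, adjusted p = 0.0212), again without overlap. Rps15 read 20.05, 19.50 and 19.77 against 18.33, 17.55 and 17.61. This was the largest difference of any member in this comparison, -1.95 (SE 0.27, adjusted p = 0.0307). Rpl28 read 17.25, 17.17 and 16.99 in C against 17.97, 18.25 and 18.19 in H, a difference of 1.00 (SE 0.17, adjusted p = 0.0494). It fell just short of the rule of the study, which Rps9 (1.15, adjusted p = 0.0759) and Rpl24 (1.26, adjusted p = 0.111) met without being called. By maximum signal those 2 differed by 0.11 and 0.43.

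These differences had the sign of those in peak width and were larger than those in peak height. Rank-mapped in the same way, the maximum signal differed by -0.04 for Rpl8, 0.06 for Rpl7l1, -0.44 for Rps15 and -0.08 for Rpl28, with adjusted p from 0.101 to 0.924. No member was called by maximum signal, against 2.05% of all promoters, and 10 members had an unadjusted p under 0.05, against 19.1%. Log2 width, rank-mapped too, differed by -1.42, -1.79, -1.71 and 0.89 in that order, and without rank mapping by -1.72, -2.19, -2.17 and 0.51, but no member was called by width either, against 0.111% of all promoters, and 12 had an unadjusted p under 0.05, against 12.2%. In coverage units the highest signal of all 4 was greater in every C than in every H library, at Rpl8 102, 146 and 178 against 68, 63 and 72. That of the median promoter with a peak everywhere differed likewise, with 179 to 284 in C and 94 to 134 in H.

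At Rpl8 the peak was 10.2, 7.38 and 10.0 kb wide in C and 2.38, 2.84 and 3.14 kb in H. In all 3 C libraries, and in 0 of 3 in H, it reached the start of Commd5, 4168 bp upstream. At Rpl7l1 it was 14.7, 14.8 and 15.2 kb in C and 3.93, 2.31 and 3.87 kb in H. It took in the start of 2310039H08Rik, 10037 bp downstream, in 3 of 3 C and 0 of 3 H libraries. At Rps15 it was 67.7, 57.0 and 74.7 kb in C and 20.5, 12.0 and 12.9 kb in H, and the starts of Ndufs7, Gamt and Dazap1 upstream were inside it in every C and no H library. Shorter peaks did not always mean that the rest of the ground was empty. From the furthest upstream to the furthest downstream end of the Rpl8 peak over all libraries there were 14.2 kb. Of these, peaks covered 70.9% to 71.8% in C and 35.1% to 55.7% in H. Of the 90.7 kb between such ends at Rps15, they covered 89.1% to 91.6% in C, in 2 to 4 pieces, and 78.1% to 82.8% in H, in 3 to 5 pieces. At Rpl28 the peak was 11.4, 11.9 and 14.4 kb in C and 16.7, 16.6 and 20.4 kb in H. The 16.7 kb of H 1 is a sum over peaks, and its strongest peak alone, of 12.9 kb, was narrower than that of C 3, so that single Rpl28 peaks overlapped between the groups.

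**Figure D4:**
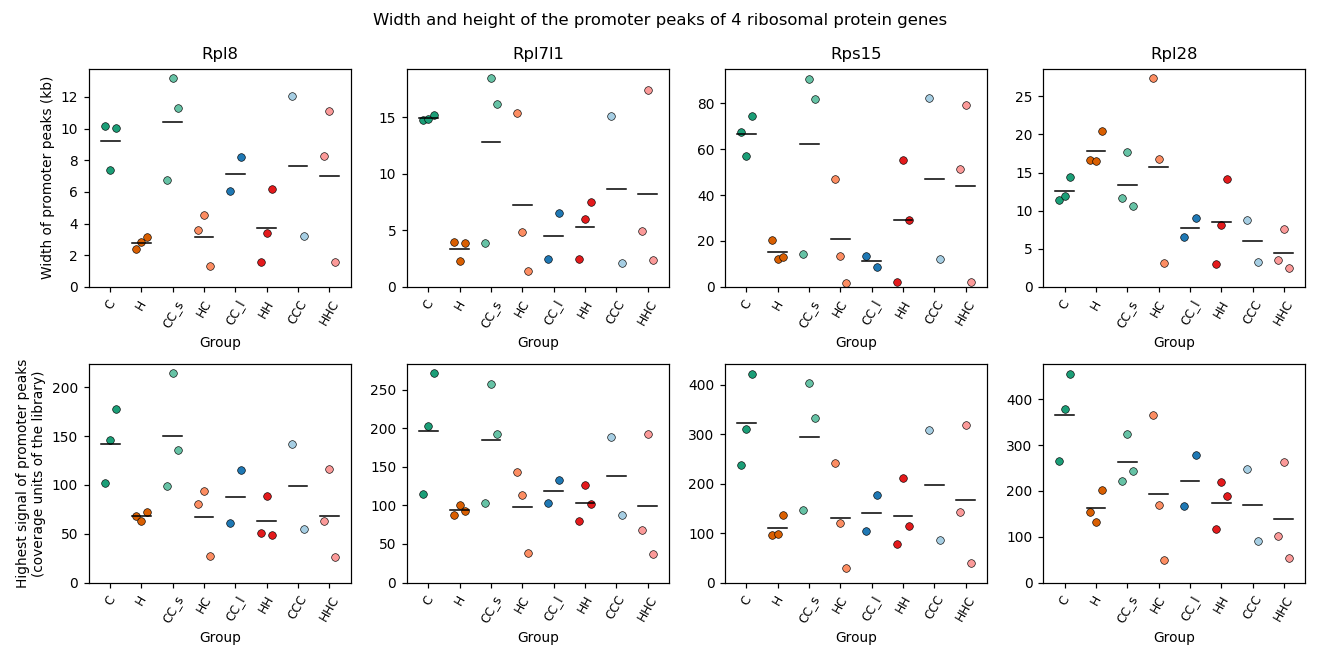
For Rpl8, Rpl7l1, Rps15 and Rpl28 the upper row plots the summed width of the promoter peaks (y axis, kb) and the lower row their highest signal in the coverage units of each library, for every library of the 8 groups (x axis), with bars at the group means. Summed widths of C and H do not overlap, although the strongest Rpl28 peak of H 1 alone is 12.9 kb wide and overlaps those of C, whereas highest signals carry each library's own scale and gave rank-mapped differences of -0.44 to 0.06.

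The contrast of the libraries moved with this comparison. The median maximum signal of a list was 6.82 to 8.92 times its lowest value in C and 4.70 to 6.40 times in H, and the peaks of all members at once were 9.23 ± 2.21 kb (SD, n = 3) wide in C and 7.16 ± 1.01 kb (n = 3) in H. Of 12 macrophage markers 3 to 4 had a peak in C and 3 to 5 in H. The part of both in the 4 calls was not tested. The calls also depended on single libraries, with 0 members called without C 2 (beside 0.275% of all promoters) or without H 2 (0.422%), 1 without H 1 (0.366%), 2 without H 3 (1.88%) and 3 each without C 1 (1.48%) and without C 3 (1.10%). Of these 6 fits Rpl8 and Rpl7l1 were called in 3 each, Rps15 in 1 and Rpl28 in 0, and Rps9 (without C 1, adjusted p = 0.0379) and Rpl24 (without C 3, adjusted p = 0.0297) in 1 each. With all libraries of the short-term arm in the fit, only Rpl8 was called (adjusted p = 0.0314), with 0.837% of all promoters. Over 12 other settings of measure, scale, window and model Rpl8 was called in 9, Rpl7l1 and Rps15 in 8 each, but Rpl28, the one higher call, in 3, with an adjusted p from 0.0401 to 0.660.

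After weight loss no member was called. In HC against CC_s 0 of 77 members passed, against 0.159% of 11947 promoters. The rule of the study gave 0 members beside 1.20% of promoters, and an unadjusted p under 0.05 gave 3 beside 5.93%. Among these were Rpl8 and Rps2. Rpl8 read 16.15, 16.82 and 16.91 in CC_s and 15.27, 15.89 and 15.64 in HC, a difference of -1.02 (SE 0.32, adjusted p = 0.772) without overlap between the groups. Its peak was 6.76, 13.2 and 11.3 kb wide in CC_s and 3.59, 4.51 and 1.34 kb in HC. Rps2 differed by -0.99 (SE 0.38, adjusted p = 0.772). By maximum signal the difference was -0.26 for Rpl8 and -0.05 for Rps2. Over the other windows and start sites that of Rps2 ran from -1.78 (500 bp) to -0.55 (all transcript starts). The contrast of the libraries was 7.30 to 7.42 in CC_s and 2.43 to 6.50 in HC, without overlap, and HC 3, which had the lowest contrast and the narrowest Rpl8 peak, held 6 of 12 macrophage markers against 3 to 5 in CC_s. The part of either in these differences was not tested. Without HC 3 the difference for Rpl8 was -1.04. With 1 library left out it ran from -1.26 to -0.86, and the difference for Rps2 from -1.21 to -0.76. The median SE of the members was 0.38 here, against 0.26 in H against C. In data simulated with the spread of each pair, 32 of 100 promoters given a log2 change of 2 were called here, against 74 in H against C. For a log2 change of 1 it was 0 of 100, against 31.

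Long-term high-fat diet gave no called member either. In HH against CC_l the count was 0 of 77, against 0.0977% of 12282 promoters, with 0 by the rule of the study beside 1.72% and 5 at an unadjusted p under 0.05 beside 7.25%. Rpl8 was again the member with the smallest p. It read 16.74 and 16.66 in CC_l and 15.62, 15.62 and 15.99 in HH, -0.95 (SE 0.23, adjusted p = 0.379) without overlap, and the peak reached Commd5 in 2 of 2 CC_l and 0 of 3 HH libraries. Rpl32, of the large subunit, differed by -1.18 (SE 0.38, adjusted p = 0.583) and Rps21, of the small subunit, by -0.97 (SE 0.33, adjusted p = 0.610). The difference for Rpl32 was -0.63 without CC_l 1 and -1.73 without CC_l 2. By maximum signal Rpl8 differed by -0.07, Rpl32 by 0.04 and Rps21 by -0.14. HH 1 had the lowest contrast of these 5 libraries, 3.75, and held 7 of 12 macrophage and 8 of 12 endothelial and stromal markers, against 3 to 4 and 2 to 3 in CC_l. Without HH 1 the differences by total signal were -0.89 for Rpl8, -1.29 for Rpl32 and -0.77 for Rps21. In the simulated data of this pair 10 of 100 promoters given a log2 change of 2 were called.

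In HHC against CCC 0 of 78 members and 0% of 12407 promoters were called. The rule of the study gave 0 members beside 0.838% and an unadjusted p under 0.05 gave 1 beside 4.17%. This was Rpl35a, of the large subunit, which read 17.16 and 16.61 in CCC and 16.16, 15.86 and 15.49 in HHC, -1.05 (SE 0.35, adjusted p = 0.921) without overlap. Rps19bp1, a binding partner of Rps19 and no ribosomal protein, differed by -1.62 (SE 0.70) and Rps12 by 0.71 (SE 0.35), both with an adjusted p of 0.921. The difference for Rps12 ran from 0.44 (without CCC 2) to 0.99 with 1 library left out, and from 0.10 to 1.19 over the other settings. That for Rps19bp1 was -0.07 with a window of 500 bp. By maximum signal Rpl35a differed by -0.32, Rps19bp1 by -0.91 and Rps12 by 0.10. Macrophage markers with a peak numbered 4 in both CCC libraries and 9, 4 and 6 in HHC, and endothelial and stromal markers 3 and 7 of 12 in CCC and 4, 4 and 8 in HHC. HHC 3, with the lowest contrast of all libraries (2.25), held the lowest Rpl35a value. Without HHC 3 the difference for Rpl35a was -0.87, and the part of these markers in it was not tested. The group means of Rpl8 lay closer together here than in the other diet pairs. It read 17.18 and 16.08 in CCC and 17.22, 16.78 and 15.73 in HHC, -0.05 (SE 0.58), and the groups overlapped. In the simulated data of this pair 0 of 100 promoters given a log2 change of 2 were called. The absence of calls in HHC against CCC therefore cannot tell a change of that size from none.

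Control groups of different age were compared in the same way. These comparisons share C, CC_s, CC_l and CCC with the diet pairs. In simulated data 64 of 100 promoters given a log2 change of 2 were called in CC_s against C and 0 of 100 in CCC against CC_l. In CC_s against C 0 of 78 members were called, against 0.00842% of 11872 promoters, 0 met the rule of the study, against 0.472%, and 0 had an unadjusted p under 0.05, against 3.61%. With the replicate number as a block 0 members and 0 promoters were called. In CCC against CC_l 0 of 78 members were called, against 0% of 11993 promoters. Here 1 member, Rpl27, met the rule of the study (1.15, SE 0.25, adjusted p = 0.583; 0.20 by maximum signal), against 1.29%, and 4 had an unadjusted p under 0.05, against 7.79%.

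**Figure D5:**
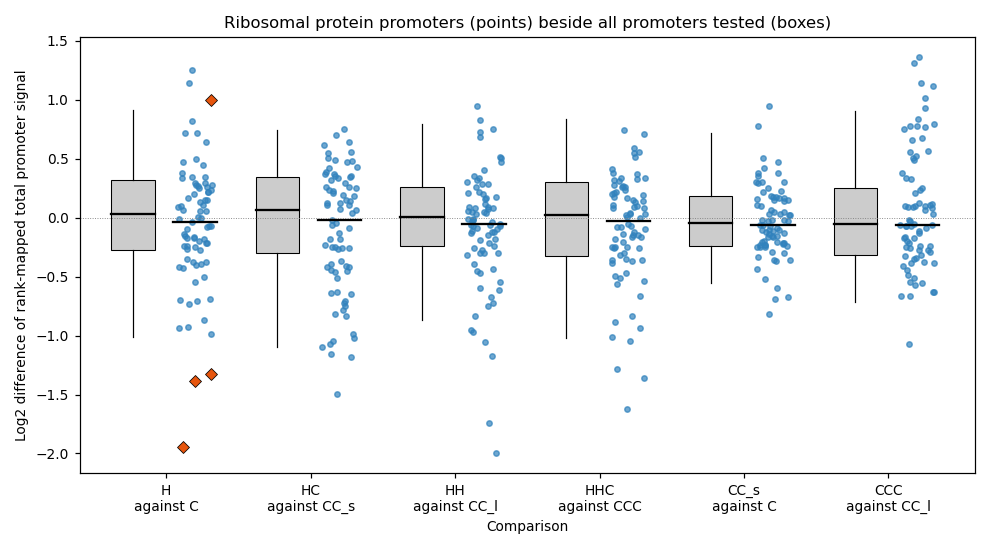
Each point is the log2 difference of rank-mapped total promoter signal (y axis) of 1 ribosomal protein promoter in 1 of 6 comparisons (x axis), with called members as orange diamonds and a bar at the median of the members, beside a box of the quartiles and 5th to 95th percentiles of all promoters tested. Medians of the members lie between -0.06 and -0.02, and the 4 diamonds are all in H against C.

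The difference between the arms was tested as an interaction. For the effect of obesity, HH against CC_l minus H against C, 0 of 78 members were called, against 0.0686% of 13126 promoters. By the rule of the study 2 members differed, Rpl7l1 and Rpl24, against 0.777%, and 5 had an unadjusted p under 0.05, against 4.41%. For the effect after weight loss 0 of 78 were called, against 0% of 13427 promoters, 0 met the rule of the study, against 0.246%, and 1, Rps2, had an unadjusted p under 0.05, against 1.71%.

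By role, the calls in H against C were 2 of 39 large subunit genes tested, 1 of 29 of the small subunit, 0 of 3 of the stalk and 1 of 6 paralogues and like-named genes, beside 2.10% of all promoters. Other lists of genes for making or using ribosomes were read beside them. In H against C, 1 of 78 mitochondrial ribosomal protein promoters was called, Mrpl16, and 0 of 4 other cytosolic ribosome genes, 0 of 14 other mRNAs with the tract and 0 of 18 ribosome biogenesis genes, beside the same 2.10%. In the other 3 diet pairs 0 promoters of these 4 lists were called by limma, with 0 to 2 of each list at an unadjusted p under 0.05, beside 4.17% to 7.25% of all promoters. Of the markers, Fabp4 of 12 adipocyte and Cd14 of 4 macrophage promoters tested were called in H against C, and Cfd of 12 adipocyte promoters in HH against CC_l, where 0.0977% of all promoters were called. None of the endothelial, stromal and lymphocyte markers was called in a diet pair.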

How the data were processed

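The measurements were 22 lists of ATAC-seq peaks, 1 per library. According to the submitters' notes and the methods, the authors trimmed reads (Trim Galore 0.6.6), aligned them to GRCm38 (mm10) with Bowtie2 2.4.4, sorted them (SAMtools 1.13), summed them to coverage (bedtools 2.30) and called peaks per library with SEACR 1.3 in stringent mode at 0.01. The deposited values are total and maximum signal in coverage units, with no stated normalization, so libraries were compared by rank. Replicates were not pooled, and each was 1 animal. The number of unmatched columns was 0.

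Promoters were rank-mapped to 11697 ranks. limma 3.58.1 (R 4.3.3; lmFit, eBayes with a trend, two-sided, Benjamini-Hochberg over all promoters tested) was run on the libraries of the groups compared, for promoters that were above the floor in at least n libraries, where n is the size of the smaller group, or 2 for the interactions. It took the place of a count test because no read counts were used here. Python 3.11.15, numpy 2.4.6 and pandas 2.3.3 did the rest. The code was tested on simulated data.

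Members and lists were chosen with earlier results of these data known. Genes were named by rule: members with a peak in fewer than 22 libraries, the 4 highest and 4 lowest, the 3 with the smallest p in each diet pair and any called, the 3 widest and 3 narrowest, 10 fixed examples and any that passed an interaction test; other genes were named after their values were seen. Some members that the rule names are not reported here. Correlations of same-numbered libraries' deviations were 0.51, 0.18 and 0.22 in CC_s against C, where numbers were taken to pair the libraries. They were 0.12 and 0.21 over the 2 pairs of HH against CC_l, and every other comparison had a pair under 0.1. Alternatives were other measures, scalings, windows, start sites, peak lists, filters, variance models, a replicate block and leaving out libraries.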

Additional observations from a re-analysis of the deposited data

Results flagged for a closer look

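Rpl7l1 and Rpl24 differed between the arms in their response to high-fat diet at an unadjusted p under 0.01 with a log2 difference above 1 in size, though neither passed adjustment over all promoters by limma. For Rpl7l1 the long-term effect minus the short-term effect was 1.66 (SE 0.23, adjusted p = 0.0525, and 0.277 with a replicate block). Its signal was 16.16 and 16.28 in CC_l and 16.61, 16.41 and 16.65 in HH, higher in 3 of 3 HH libraries, while it was lower in 3 of 3 H libraries than in any C library. It read 17.41, 17.36 and 17.30 in C and 15.93, 15.95 and 16.21 in H, so the controls of the 2 arms lay apart too. The other controls read 16.22, 17.13 and 17.42 in CC_s and 17.49 and 16.50 in CCC. For Rpl24 the difference between the effects was -1.39 (SE 0.41, adjusted p = 0.987). It read 16.53, 16.48 and 17.57 in C and 18.02, 18.19 and 18.14 in H, against 16.78 and 16.73 in CC_l and 16.57, 16.53 and 16.76 in HH. By maximum signal the difference between the effects was 0.17 for Rpl7l1 (adjusted p = 0.973) and -0.82 for Rpl24. The arms coincide with separate series of animals and ages, which cannot be told apart from the duration of the diet. Groups of 2 or 3 libraries are too small for a check of single libraries that lie far out.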

How the results depend on the processing

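The count of called members in H against C, 4 as reported, was 0 by maximum signal, 0 with a replicate block, 0 by peak width (added after the data had been seen) and 1 with all libraries of the arm in the fit, and leaving out each library gave 0 to 3. The count of all promoters called, 251, was 12 with the block, 14 by width, 100 with the arm, 154 after median centring, up to 293 elsewhere, and 34 to 233 without each library. Under the other alternatives 3 or 4 members were called. For the obesity effect between arms 1 member, Rpl7l1, was called after median centring and 1 without a variance trend, and leaving out each library gave 0 to 1 (1 without HH 3). By maximum signal the sign turned for Rpl7l1 (0.056) and Rpl28 (-0.0797) in H against C and for Rpl32 (0.041) in HH against CC_l. In the other comparisons 0 members were called under every alternative run, and the block changed no other call of a member. The crossed numbers in CCC against CC_l (added later) gave 0. Counts of all promoters were 0 to 17 in HC against CC_s (19 as reported, 121 without CC_s 1), 0 to 23 in HH against CC_l (12 as reported, 33 without HH 1), 0 to 5 in each control pair (57 without CC_s 1 in CC_s against C), 0 to 2 in HHC against CCC, and 4 to 14 in the obesity effect between arms (9 as reported, 29 without C 1). Median centring moved the median member to -0.26 in H against C and -0.37 in HC against CC_s, where that of all promoters became -0.06 and 0.00. In HH against CC_l it became -0.17, and in HHC against CCC -0.10, with all promoters at -0.06 and 0.01. The number of members with a peak in every library was 55 (strongest 20000 peaks) to 76 (without HC 3 and HHC 3, added later) under the alternatives and 74 or 75 without each library. With 2 or 3 animals a group and no read depth, a p that misses the threshold does not show equal accessibility.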
